A study of Homo sapiens with 6 samples.

Results

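The SR proteins and the heterogeneous nuclear ribonucleoproteins (hnRNPs) were examined in SW480 cells depleted of the splicing factor RBM39. Members were the symbols of the deposited count table made of SRSF and a number, or of HNRNP followed only by letters and digits, with 124 pseudogene names left out, together with TRA2A, TRA2B, PTBP1, PTBP2 and PTBP3. This gave 42 of 56303 gene symbols. Of these, 37 passed the filter on low counts and were tested. The 5 left out were SRSF12 and the hnRNP C-like genes HNRNPCL1, HNRNPCL2, HNRNPCL3 and HNRNPCL4, which had between 0 and 10 counts in a library. No value of these 5 is read as a change.

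SW480 is an established line of human colon adenocarcinoma cells. The study infected it with lentivirus carrying a nonsilencing hairpin (shCtrl) or a hairpin against RBM39 (shRBM39), selected stable lines with puromycin that its methods describe as clonal, and sequenced mRNA from 3 libraries per group, 6 in all. Both groups therefore carry a hairpin and went through selection, the labels give 1 kind of knockdown, and a difference between lines cannot be told apart from the depletion. The study's methods describe the 3 libraries of a group as replicate experiments, and within a group the p-values measure the spread between libraries of the same line.

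SR proteins carry RNA recognition motifs and a domain rich in arginine and serine, bind exonic enhancers, and as a rule promote the use of the exon they bind. hnRNPs coat nascent transcripts, and many of them, PTB proteins and hnRNP A1 among them, silence exons or splice sites. Both families also act in export, stability and translation of mRNA, and many of their genes limit their own mRNA through exons whose use exposes the transcript to nonsense-mediated decay.

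Total counts ran from 18042924 to 20428901 per library. RBM39 mRNA, the target, was 441, 448 and 435 CPM (counts relative to library size, scaled by the TMM method) in shCtrl and 266, 276 and 292 CPM in shRBM39, a log2 fold change of -0.67 ± 0.04 (SE; adjusted p = 1.24e-16, edgeR). All 9 colon epithelial markers were detected, with summed levels of 11700 to 12600 CPM in shCtrl and 14800 to 15300 CPM in shRBM39. That sum is mostly KRT8 and KRT18, which rose from 6920 and 2940 to 9310 and 3480 CPM. Of the 9, 3 rose and 4 fell, with a median log2 fold change of 0.02, and the 4 that fell were CDX2, an intestinal transcription factor, with a log2 fold change of -2.13, CDH17 with -1.34, CDH1 with -0.39 and VIL1 with -0.09. Of 4 leukocyte markers 3 were detected, summing to between 0.236 and 0.645 CPM in shCtrl and between 0.116 and 0.306 CPM in shRBM39, and the defining gene PTPRC was at 0 counts. The 5 fibroblast markers summed to between 10 and 11.1 CPM in shCtrl and to between 14 and 14.6 CPM in shRBM39, and the 3 endothelial markers to between 3.47 and 4.58 CPM and between 6.45 and 7.96 CPM. The part of these marker shifts in the results was not tested. In bulk RNA, a change in the share of cells and a change in RNA per cell cannot be told apart.

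Most of the family was moderately higher in shRBM39. Of 37 tested members, 32 rose, 4 fell and 1, SRSF10, was not called at an adjusted p of 0.05 in edgeR's quasi-likelihood test. Across all 18243 tested genes 59.1% were called, 29.2% higher and 29.9% lower. The median log2 fold change was 0.39 over the members and -0.01 over all tested genes. Members ranged from -0.16 to 0.61, so none reached a doubling, which 6.52% of all genes passed as called changes of at least 2-fold in either direction. Libraries of the groups did not overlap for 34 of the 37, against 63.3% of all tested genes. Abundant genes as a class also leaned upward: among 1388 genes with an average log2 CPM above 7, members left out, the median was 0.15, 56.6% were higher and 26.9% lower. Scaled by library totals alone, the median of all genes moved to -0.14, 33.9% of called genes were higher in place of 49.4%, and 26 members were higher and 5 lower.

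**Figure D1:**
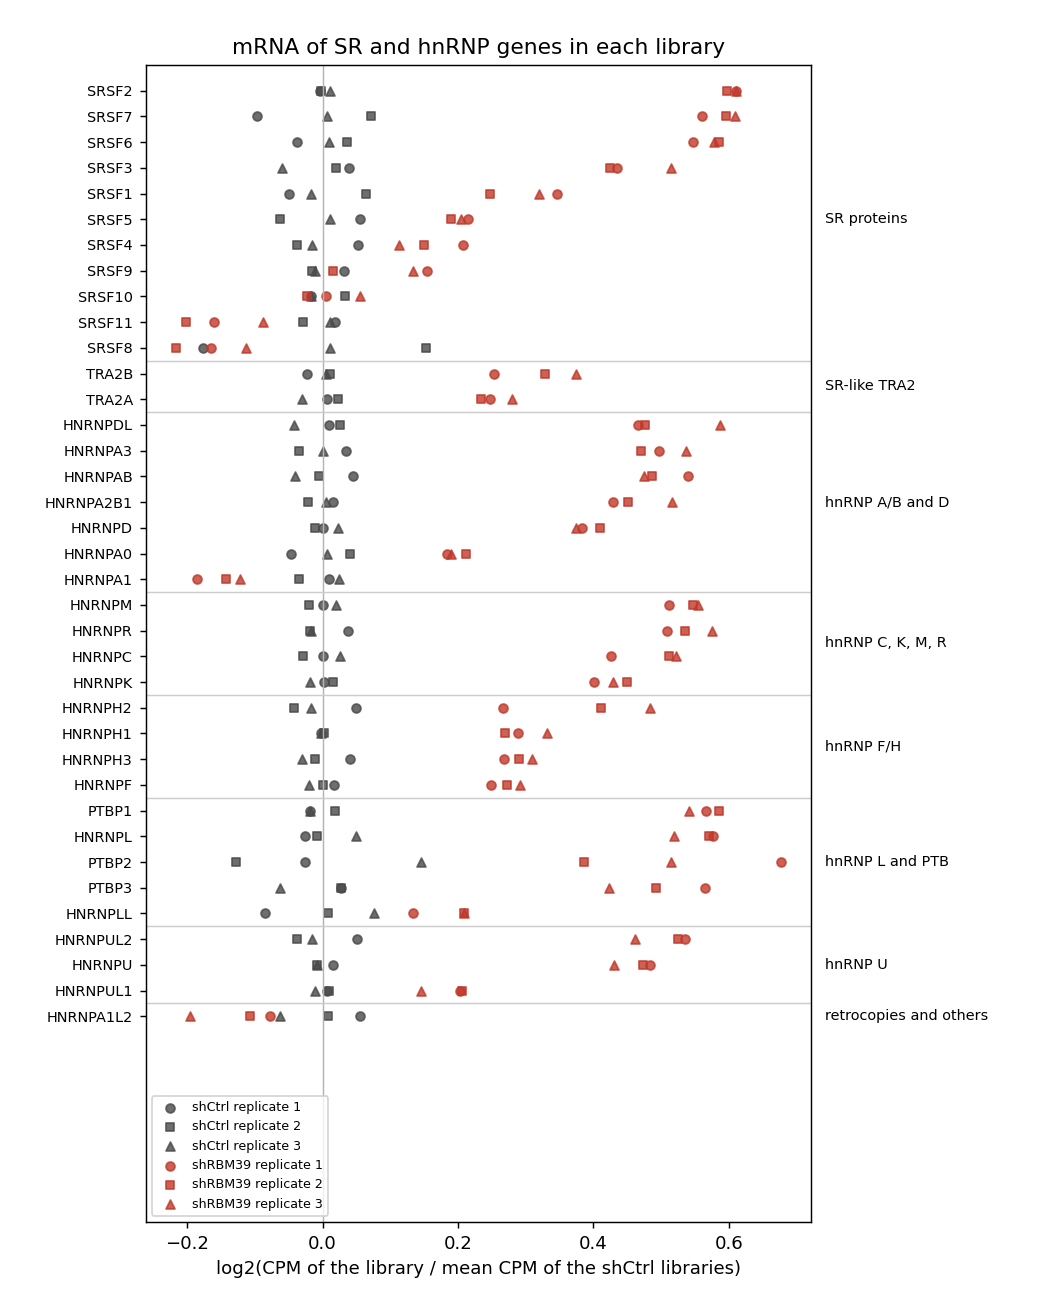
CPM of the 37 tested genes in each library, as log2 of its ratio to the mean of the 3 shCtrl libraries (x axis), with genes on the y axis grouped by family; grey points are shCtrl and red points shRBM39, and the marker shape gives the replicate number. Red points lie to the right of the grey ones for most genes, and to the left for HNRNPA1, SRSF11 and HNRNPA1L2.

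Among the SR proteins, 11 of 12 were tested, of which 8 rose and 2 fell. The share called was 90.9%, against 59.1% of all tested genes, of which 29.2% were higher and 29.9% lower. SRSF2 (chromosome 17, 76734115 to 76737374, minus strand, GRCh38), which recognises both C-rich and G-rich enhancers, had 67.9, 68 and 68.6 CPM in shCtrl and 104, 103 and 104 CPM in shRBM39. Its log2 fold change of 0.61 ± 0.04 (adjusted p = 7.59e-15) was the highest of all members. The libraries within a group lay close together and the groups were far apart. MFSD11, on the opposite strand and overlapping 36.7% of the SRSF2 exons, had 87.9% to 94.2% as many counts as SRSF2 and a log2 fold change of 0.55. Whether counting used the strand is not given in the sources used here, so reads of SRSF2 and MFSD11 cannot be told apart.

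SRSF7, whose zinc knuckle sets it apart from the other SR proteins, had 203, 228 and 218 CPM in shCtrl and 320, 328 and 331 CPM in shRBM39 (log2 fold change 0.59 ± 0.04, adjusted p = 7.97e-15). Its close paralog SRSF3, the smallest SR protein, went from 228, 225 and 213 CPM to 300, 298 and 317 CPM (0.46 ± 0.04, adjusted p = 2.15e-12). SRSF6, which carries a pair of RNA recognition motifs, went from 152, 160 and 157 CPM to 228, 234 and 233 CPM (0.57 ± 0.04, adjusted p = 3.71e-15). In each of these 3 genes every shRBM39 library exceeded every shCtrl library.

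The changes were smaller for SRSF1, SRSF4, SRSF5 and SRSF9. SRSF1, the founding SR protein and a proto-oncogene, had 342, 370 and 350 CPM in shCtrl and 450, 420 and 442 CPM in shRBM39 (0.30 ± 0.04, adjusted p = 2.62e-08). A transcript on the opposite strand, RP11-159D12.6, had 42.2% to 43.1% as many counts as SRSF1 and a log2 fold change of 0.31. On the same strand, RP11-159D12.5 had 25.1% to 26.8% as many counts as SRSF1 and a log2 fold change of 0.28. SRSF4 and SRSF5, relatives of SRSF6, rose by 0.16 ± 0.04 and 0.20 ± 0.04 on the log2 scale (adjusted p = 0.000568 and 2.36e-05). Scaled by library totals alone, SRSF4 and SRSF5 stood at 0.03 and 0.08 and were no longer called. SRSF9, a short relative of SRSF1, was called at 0.10 ± 0.04 (adjusted p = 0.025), but its libraries overlapped, at 273, 264 and 265 CPM in shCtrl and 297, 270 and 293 CPM in shRBM39, and library totals alone gave -0.02. The SRSF9 call was lost without shCtrl replicate 2 or 3 and without shRBM39 replicate 1 or 3, where adjusted p ran from 0.068 to 0.108. GATC covers 46.2% of the SRSF9 exons on the other strand and had 15.2% to 16.9% of its counts.

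SRSF10, SRSF11 and SRSF8 departed from the rest. SRSF10, a regulator known as a splicing repressor when dephosphorylated, had 251, 260 and 251 CPM in shCtrl and 255, 250 and 264 CPM in shRBM39. Its groups overlapped and the log2 fold change was 0.01 ± 0.04 (adjusted p = 0.776). This value turned to -0.11 (adjusted p = 0.00892) with library totals alone and to 0.15 (adjusted p = 0.000312) once GC content and length were corrected for, so its direction rests on the scaling.

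SRSF11, which has an arginine and serine rich domain and interacts with U2AF, had 566, 548 and 563 CPM in shCtrl and 500, 486 and 526 CPM in shRBM39, with no overlap (-0.15 ± 0.04, adjusted p = 0.000902). Corrected for GC content and length, SRSF11 stood at -0.04 (adjusted p = 0.28). SRSF8, an intronless relative of SRSF2, had 22.2, 27.9 and 25.3 CPM in shCtrl and 22.4, 21.6 and 23.2 CPM in shRBM39 (-0.16 ± 0.07, adjusted p = 0.0417). The lowest shCtrl library lay within the range of the shRBM39 libraries. Without shCtrl replicate 2 the log2 fold change of SRSF8 was -0.08 (adjusted p = 0.363), and the call was also lost without shCtrl replicate 3, shRBM39 replicate 1 or shRBM39 replicate 2.

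The TRA2 proteins, SR-like enhancers of exon inclusion that bind GAA-rich sequence, were both higher. TRA2B had 246, 252 and 251 CPM in shCtrl and 298, 314 and 324 CPM in shRBM39 (0.32 ± 0.04, adjusted p = 5.48e-09). TRA2A, its paralog of lower level, had 48.9, 49.5 and 47.7 CPM and 57.8, 57.3 and 59.1 CPM (0.25 ± 0.05, adjusted p = 1.06e-05). Both were free of overlap between groups.

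All 23 hnRNP and PTB genes outside the retrocopies passed the test, 22 higher and 1 lower, with a median log2 fold change of 0.47. Over all tested genes 59.1% were called, 29.2% higher and 29.9% lower. Among genes with an average log2 CPM above 7, members left out, 56.6% were higher and 26.9% lower, with a median of 0.15. Of the 23, the gene that fell was HNRNPA1 (chromosome 12, 54280193 to 54287088, plus strand, GRCh38), the exon silencer that often opposes SRSF1. It had 5990, 5810 and 6050 CPM in shCtrl and 5230, 5390 and 5470 CPM in shRBM39, without overlap (-0.15 ± 0.04, adjusted p = 0.000535). Its mean fell by 9.85%. HNRNPA1 pseudogenes held counts equal to 2.13% to 2.23% of HNRNPA1 in shCtrl and 1.87% to 2.02% in shRBM39. How reads matching several places were counted is not given in the sources used here, so the level of HNRNPA1 itself carries that uncertainty. HNRNPA1L2, a retrocopy of HNRNPA1, was also called lower, from 39.4, 38.1 and 36.3 CPM to 35.9, 35.2 and 33.1 CPM (-0.13 ± 0.05, adjusted p = 0.0377). Reads of parent and retrocopy may be exchanged, and the HNRNPA1L2 call was lost without shCtrl replicate 1 (-0.09, adjusted p = 0.176) and without shCtrl replicate 2, shRBM39 replicate 2 or shRBM39 replicate 3.

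The closest relatives of HNRNPA1 moved the other way. HNRNPA2B1, which shares its architecture of paired RNA recognition motifs and a glycine-rich tail, had 2750, 2680 and 2730 CPM in shCtrl and 3660, 3720 and 3890 CPM in shRBM39 (0.47 ± 0.04, adjusted p = 3.31e-13). HNRNPA3 had 769, 733 and 751 CPM and 1060, 1040 and 1090 CPM (0.50 ± 0.04, adjusted p = 6.76e-14). Within each library, and so independent of scaling, the level per length of HNRNPA2B1 relative to HNRNPA1 was 0.31, 0.312 and 0.304 in shCtrl and 0.472, 0.466 and 0.48 in shRBM39. The ratio of HNRNPA3 to HNRNPA1 moved likewise, from 0.107 ± 0.00173 to 0.168 ± 0.0048 (SD, n = 3 per group; exact permutation test, two-sided, p = 0.1, the smallest p that 3 against 3 libraries allow).

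The other members of this group rose as well. HNRNPAB, also known as CArG-box binding factor A, went from 249 ± 7.51 to 353 ± 8.41 CPM (SD, n = 3; log2 fold change 0.50). HNRNPD, also known as AUF1, which binds AU-rich elements and promotes mRNA decay, went from 1250 ± 16.9 to 1640 ± 20.4 CPM (0.38), and its paralog HNRNPDL from 281 ± 6.32 to 400 ± 19.2 CPM (0.51). HNRNPA0, an intronless gene whose product binds AU-rich elements, went from 87.2 ± 2.68 to 100 ± 1.28 CPM (0.20, adjusted p = 0.000102). With library totals alone HNRNPA0 stood at 0.07 and was not called.

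HNRNPC, HNRNPK, HNRNPM and HNRNPR, abundant hnRNPs of separate subfamilies, formed an even group with log2 fold changes from 0.43 to 0.54. HNRNPM, an enhancer and silencer of exons at GU-rich sites, had 1410, 1390 and 1430 CPM in shCtrl and 2010, 2060 and 2070 CPM in shRBM39 (0.54 ± 0.04, adjusted p = 5.66e-15). RP11-886P16.10, on the opposite strand of 6.1% of the HNRNPM exons, had 34.2% to 37.1% as many counts as HNRNPM and the same log2 fold change of 0.54. HNRNPC, which binds uridine tracts and keeps Alu-derived exons silent, rose from 975 ± 18.8 to 1370 ± 47.3 CPM (0.49), HNRNPR from 613 ± 13.8 to 891 ± 20.2 CPM (0.54), and the poly(C)-binding HNRNPK from 680 ± 7.83 to 914 ± 15.8 CPM (0.43).

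The G-tract binding hnRNP F/H genes rose by less. HNRNPH2 had 179, 168 and 171 CPM in shCtrl and 208, 230 and 242 CPM in shRBM39 (0.39 ± 0.04, adjusted p = 1.59e-09), the widest spread of the 4. HNRNPH1 rose by 0.30, HNRNPH3 by 0.29 and HNRNPF by 0.27 on the log2 scale, with adjusted p-values of at most 5.49e-08. RPL36A-HNRNPH2, a readthrough symbol covering 16.3% of the HNRNPH2 exons on the same strand, had 603% to 847% as many counts as HNRNPH2 and a log2 fold change of -0.04 (adjusted p = 0.402). How reads in the shared exons were assigned is not given in the sources used here.

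The pyrimidine- and CA-binding hnRNP L and PTB genes all rose. PTBP1 (chromosome 19, 797075 to 812327, plus strand, GRCh38), the PTB protein of most non-neuronal cells and a repressor of exons flanked by pyrimidine tracts, had 152, 156 and 152 CPM in shCtrl and 228, 231 and 224 CPM in shRBM39 (0.57 ± 0.04, adjusted p = 3.12e-15). HNRNPL, which binds CA repeats, had 168, 170 and 177 CPM and 255, 254 and 245 CPM (0.55 ± 0.04, adjusted p = 9.81e-15). AC104534.3, on the same strand of 8.2% of the HNRNPL exons, had 56.9% to 81.3% as many counts as HNRNPL and a log2 fold change of 0.18. The groups were far apart for PTBP1 and HNRNPL alike. PTBP3 rose from 26.1 ± 0.928 to 36.8 ± 1.79 CPM (0.50 ± 0.06), and HNRNPLL, the paralog of HNRNPL known for switching CD45 isoforms in lymphocytes, from 35.2 ± 1.94 to 40 ± 1.21 CPM (0.18 ± 0.05, adjusted p = 0.00345).

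PTBP2, the neuronal PTB protein, was at the bottom of the tested members, with 65, 64 and 74 counts in shCtrl and 103, 74 and 91 counts in shRBM39. In CPM these were 3.23, 3.01 and 3.64 and then 5.26, 4.3 and 4.7, with no overlap (0.53 ± 0.14, adjusted p = 0.00144). The error is the largest of any tested member, and on the log2(RPKM + 1) scale the change was 0.09 and not called (adjusted p = 0.0655, limma).

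HNRNPU, a nuclear scaffold protein that binds RNA and chromatin, had 1800, 1770 and 1770 CPM in shCtrl and 2490, 2470 and 2400 CPM in shRBM39 (0.46 ± 0.04, adjusted p = 2.55e-13). COX20 overlaps 25.8% of its exons on the other strand but had only 2.75% to 4.09% of its counts. HNRNPUL2 rose by 0.51, from 579 ± 18.6 to 823 ± 22.3 CPM, and HNRNPUL1 by 0.18, from 488 ± 3.9 to 555 ± 12.8 CPM. The readthrough symbol HNRNPUL2-BSCL2, on the same strand, had 97.6% to 98.9% as many counts as HNRNPUL2, so reads of these symbols cannot be told apart.

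Per length, the members spanned several orders of magnitude. HNRNPA1 stood first, at 1170 ± 23.9 CPM per kilobase of merged exons in shCtrl, followed by HNRNPA2B1 at 361 ± 4.56, HNRNPM at 251 ± 3.3, HNRNPF at 242 ± 3.08 and HNRNPD at 180 ± 2.43. These 5 did not overlap with their neighbours and kept their order in shRBM39. HNRNPC (133 ± 2.57), HNRNPK (133 ± 1.53) and HNRNPU (131 ± 1.44) came next and could not be ordered beyond their spread. SRSF1 was the highest SR protein by this measure, at 106 ± 4.39 CPM per kilobase, rank 12 of all members by the mean in both groups. It overlapped with HNRNPUL2 just above it. The order depends on the length of the merged exons: by CPM alone, SRSF11 (559) and SRSF4 (466) were above SRSF1 (354) in shCtrl. HNRNPR, SRSF7 and HNRNPDL each moved up by 3 places in shRBM39, and SRSF10 and SRSF11 moved down by 3. Tested members at the lower end were PTBP3, at 3.16 ± 0.113, and PTBP2, at 0.255 ± 0.0247 CPM per kilobase.

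**Figure D2:**
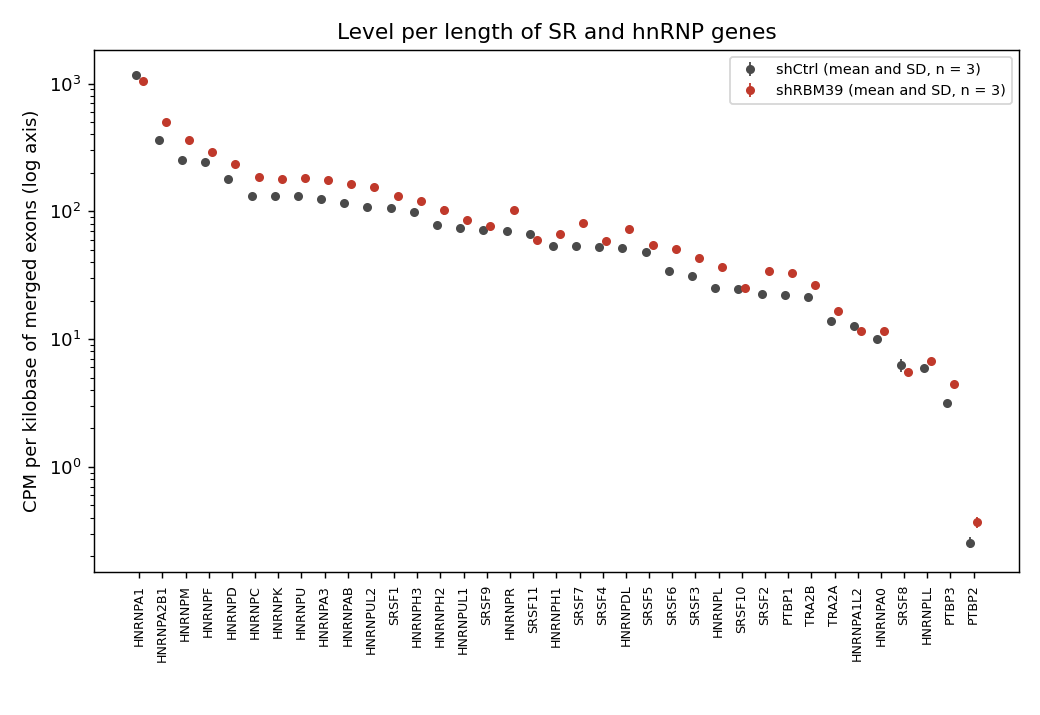
Level per length of the 37 tested genes (y axis, CPM per kilobase of merged exons, log axis) in order of the shCtrl mean (x axis), as mean and SD of 3 libraries per group. HNRNPA1 is highest in both groups, at 1170 in shCtrl and 1050 in shRBM39, and PTBP2 lowest.

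Summed over members, SR and hnRNP genes took 2.43% to 2.45% of all counts in shCtrl and 2.69% to 2.76% in shRBM39. The 14 SR and TRA2 genes held 0.325%, 0.331% and 0.327% in shCtrl and 0.352%, 0.343% and 0.356% in shRBM39. The 23 hnRNP and PTB genes held 2.10%, 2.09% and 2.12%, then 2.34%, 2.37% and 2.40%. Their summed level per length relative to that of the SR and TRA2 genes was 6.34, 6.11 and 6.30 in shCtrl and 6.10, 6.38 and 6.23 in shRBM39, with full overlap. With HNRNPA1 left out of the sum the ratio was 4.19, 4.05 and 4.14 in shCtrl and 4.56, 4.75 and 4.63 in shRBM39, without overlap. HNRNPA1 was the only gene of the 23 called lower. Leaving it out lowered the ratio in both groups, and by construction moved shRBM39 upward relative to shCtrl. The size of the remaining difference is not fixed by this choice, and the shift is not a separate result. HNRNPA1 made up 33.8%, 33.6% and 34.3% of the hnRNP level in shCtrl and 25.3%, 25.6% and 25.7% in shRBM39.

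Relative levels of members of the same family were compared within libraries, for 12 pairs chosen after their values had been seen. The ratio did not overlap between groups in 9 pairs, each with an exact permutation p of 0.1 (two-sided, adjusted over the pairs 0.13), the smallest that the design allows. Levels of single genes did not overlap for 63.3% of all tested genes, and no share over other pairs was computed. SRSF6 relative to SRSF4 went from 0.61, 0.681 and 0.659 to 0.822, 0.875 and 0.896. SRSF10 relative to SRSF7 went from 0.487, 0.449 and 0.452 down to 0.314, 0.3 and 0.313. HNRNPL relative to HNRNPLL went from 4.39, 4.16 and 4.14 to 5.75, 5.42 and 5.23. Ratios of 3 pairs overlapped: TRA2B to TRA2A (1.53 ± 0.0354 and 1.61 ± 0.0561), PTBP1 to PTBP3 (7.05 ± 0.217 and 7.42 ± 0.307) and HNRNPH1 to HNRNPH2 (0.691 ± 0.0238 and 0.651 ± 0.0438).

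The members are longer and poorer in GC than the average gene. Their merged exons had a median GC content of 41.4% and a median length of 5923 bases, against 49.3% and 3901 bases over all tested genes. Median log2 fold changes of all genes lay between -0.06 and 0 in the 6 bands of GC content, and correcting for both properties gave 32 members higher and 3 lower. The median of the members was then 0.44.

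**Figure D3:**
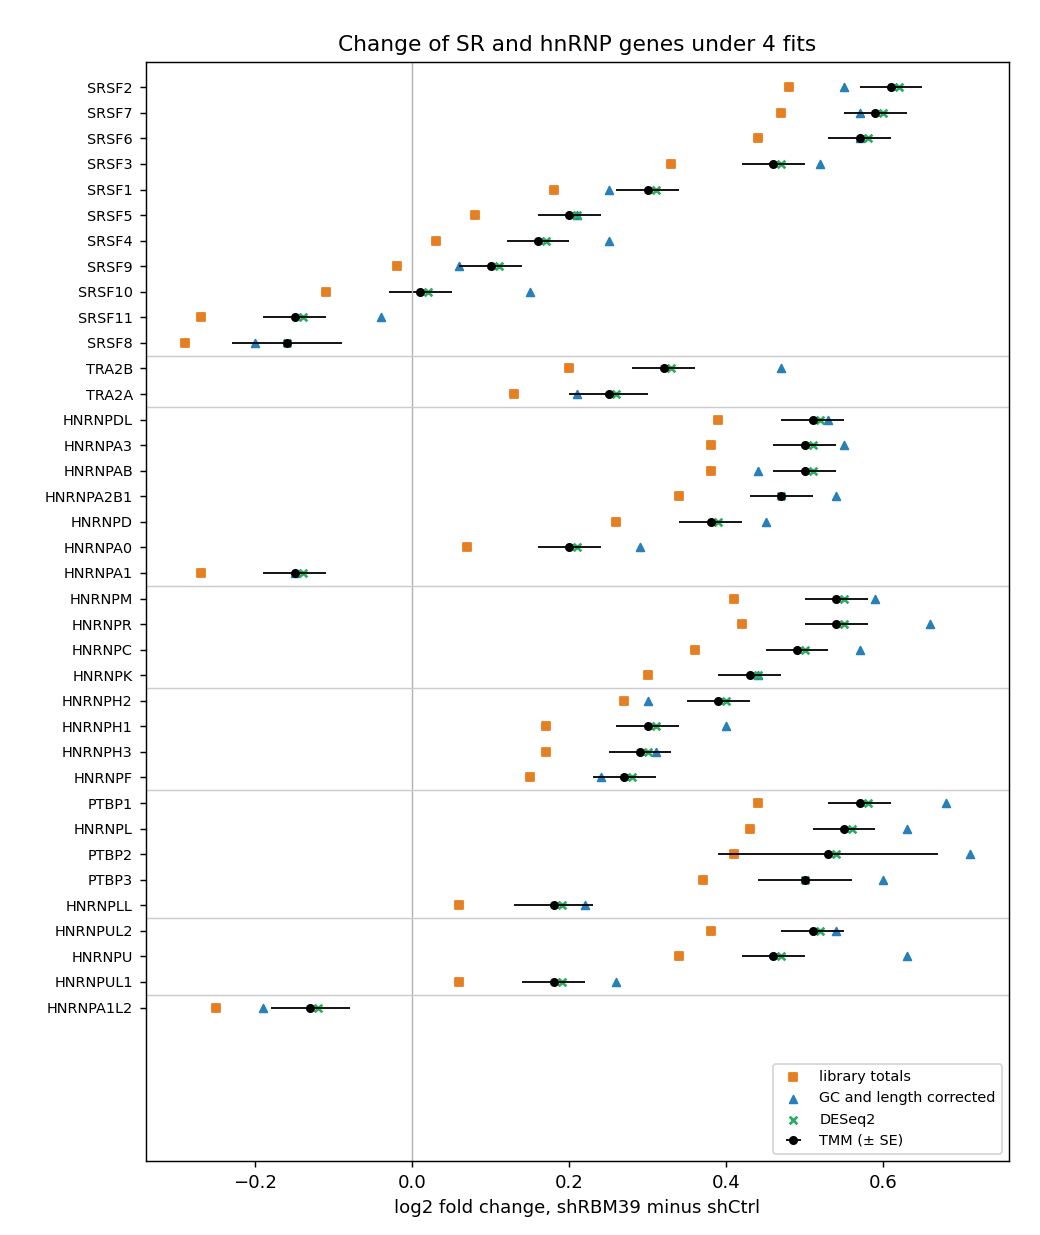
Log2 fold change (x axis, shRBM39 minus shCtrl) of the 37 tested genes (y axis, grouped by family) from edgeR with TMM scaling (black, bars are SE), with library totals alone (orange), after correction for GC content and length (blue) and from DESeq2 (green). Library totals place every gene further left, which puts SRSF9 at -0.02 and SRSF10 at -0.11, while SRSF2, SRSF7, PTBP1 and HNRNPL stay above 0.4.

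Genes that act on or beside these proteins moved in both directions. Of 11 kinases and importins, 1 rose and 6 fell, with a median of -0.16. The share called was 63.6%, against 59.1% of all tested genes, of which 29.2% were higher and 29.9% lower. Correcting for GC content and length gave 3 kinases and importins higher and 3 lower. Without shRBM39 replicate 1, 2 of these 11 were higher. TNPO3, the importin that carries SR proteins to the nucleus, rose by 0.34 (88.8 ± 2.8 to 113 ± 3.02 CPM). SRPK3, a kinase best known from muscle, fell by 0.88 (12.1 ± 0.389 to 6.58 ± 0.147 CPM), and the nuclear kinases CLK1 and CLK3 fell by 0.32 and 0.26 on the log2 scale. SRPK1, the main cytoplasmic SR kinase, stood at 0.03 (adjusted p = 0.458).

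Of 6 hnRNP proteins with other symbols, 2 rose and 2 fell, with a median of 0.02 (66.7% called, against 59.1% of all tested genes). SYNCRIP (hnRNP Q) rose by 0.51 on the log2 scale, while RBMX (hnRNP G) and PCBP2 (hnRNP E2) fell by 0.38 and 0.18. Among 12 SR-related proteins 9 rose and 2 fell, with a median of 0.33 (91.7% called). THRAP3, which carries an arginine and serine rich domain, rose by 0.68 (417 ± 4.83 to 670 ± 12.3 CPM), SRRM1 by 0.54 and LUC7L by 0.51, while LUC7L3 fell by 0.39 and SREK1 by 0.09 (adjusted p = 0.0298). Only 1 of the 12 was lower with DESeq2, with no filter on low counts, after correction for GC content and length, and without shCtrl replicate 1 or 3 or shRBM39 replicate 1 or 2. Of 18 other splicing regulators, 15 were tested, of which 4 rose and 5 fell, with a median of 0.04. The share called was 60%, close to the 59.1% of all tested genes. TARDBP, the UG-binding protein TDP-43, rose by 0.74 (188 ± 2.44 to 313 ± 7.86 CPM). MBNL2 and MBNL3, muscleblind proteins, fell by 1.13 and 1.08 on the log2 scale, the latter from 2.49 ± 0.328 CPM, and QKI fell by 0.52. Without shCtrl replicate 3 or shRBM39 replicate 1, 2 of these 15 regulators were higher. Library totals alone left 2 higher and 7 lower, and correcting for GC content and length gave 7 higher and 5 lower.

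The deposited splicing records were searched for the members. The table lists events of rMATS that passed the authors' limits, as inclusion levels of group 1 and group 2, without naming the knockdown among them, so no direction relative to RBM39 is given. Of 37 tested members, 2 had a record, HNRNPD and PTBP2, which is 5.41% against 6.54% of all tested genes and 8.47% of genes with an average log2 CPM above 7. Both were skipped exons. No record was listed for an SR protein, and an event below the authors' limits would not be listed, so unlisted members are not shown to be unchanged. The 2 exons are printed in capitals, 5′ to 3′ on the transcript strand (GRCh38), after the last 60 bases of the intron before them in lower case, since they are the only members' events in the table and their flanks differ.
HNRNPD exon 2, chr4:82371528-82371644: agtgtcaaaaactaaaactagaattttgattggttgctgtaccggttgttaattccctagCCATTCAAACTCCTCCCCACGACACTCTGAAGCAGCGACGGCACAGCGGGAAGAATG
PTBP2 exon 10, chr1:96806359-96806452: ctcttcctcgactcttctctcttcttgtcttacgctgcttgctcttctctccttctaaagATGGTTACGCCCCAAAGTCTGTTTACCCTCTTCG

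The HNRNPD exon spans 57 bases (chromosome 4, 82371528 to 82371584, minus strand). It is exon 2 of 9 in the canonical GENCODE v44 transcript, lies in the coding sequence, and is a multiple of 3, so the coding length is 1065 bases with it and 1008 bases in the matching transcript without it. It is known as an alternative exon that distinguishes the AUF1 protein isoforms. Group 1 libraries had inclusion levels of 0.852, 0.831 and 0.847. Group 2 libraries had 0.732, 0.754 and 0.742, and each library had 4873 to 6744 reads on the event. Wilson intervals at 95%, which cover counting error only, ran from 0.82 to 0.862 over the group 1 libraries and from 0.718 to 0.767 over those of group 2. The levels did not overlap, the means differed by 0.101, and the adjusted p was 2.79e-12 in an edgeR fit of inclusion against skipping reads over the 1582 listed records. Of these records 38.2% were called and 57.6% did not overlap, in a table already selected by the authors for differences. The exon had more reads than any other listed record, and by size of the difference it was number 1257 of 1263 skipped exons, just inside the limit of 0.1 at which the list ends. The larger form was the included one in all 6 libraries.

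The PTBP2 exon spans 34 bases (chromosome 1, 96806419 to 96806452, plus strand). It is exon 10 of 14 in the canonical transcript, and its length is not a multiple of 3. In GENCODE v44, the transcripts that include it are 9 protein-coding ones, 1 of the nonsense-mediated decay type and 2 with a retained intron. Those that skip it are 3 of the nonsense-mediated decay type and 3 with no coding sequence or a retained intron. Skipping of this exon under PTBP1 is a textbook case of cross-regulation between PTB proteins. Group 1 libraries had levels of 0.569, 0.209 and 0.679, from 8, 8 and 11 reads. Group 2 libraries had 0, 0.442 and 0, from 1, 4 and 1 reads. The groups overlapped, and Wilson intervals of the group 2 libraries with a level of 0 reached 0.753. The difference of 0.338 was not called (adjusted p = 0.46, edgeR), so no difference was detectable at this depth.

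The introns before the 2 exons differ in composition. In the 60 bases printed for PTBP2, 81.7% are pyrimidines and TCTT, a motif bound by PTB proteins, occurs 6 times, with CTCTCT once. The window of HNRNPD holds 50% pyrimidines and neither motif. Both motifs were searched on the transcript strand only and can overlap each other. Over the corresponding windows of 1208 listed skipped exons, the median pyrimidine content was 58.3%, and 50.6% hold TCTT and 8.77% CTCTCT. These matches describe sequence and are not shown to be sites.

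**Figure D4:**
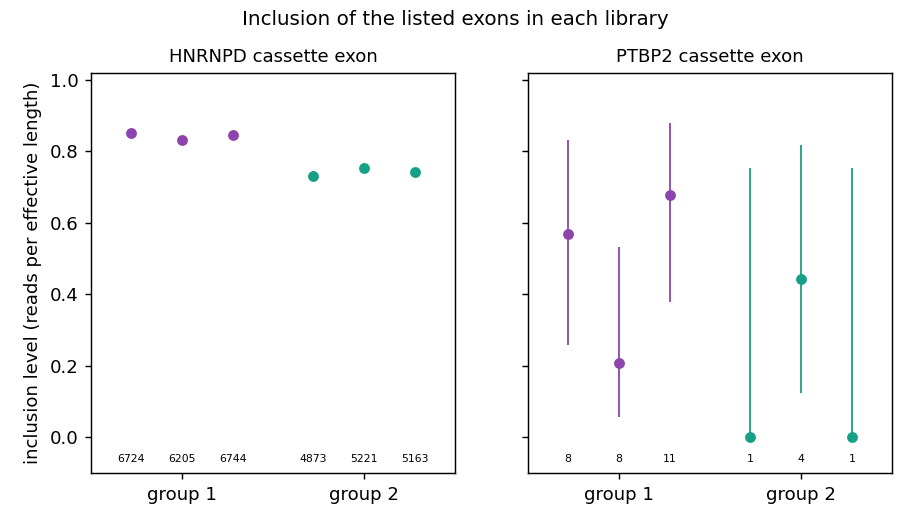
Inclusion level (y axis, share of reads per effective length) of the listed HNRNPD and PTBP2 exons in the 3 libraries of each group (x axis), with Wilson 95% intervals as bars and the number of reads on the event printed under each point. The HNRNPD groups are apart with intervals smaller than the points, while the PTBP2 intervals overlap.

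Records of the other lists were few. The kinases and importins, the hnRNP proteins under other symbols and the SR-related proteins had 0 records. The other splicing regulators had 4 records in 3 genes, and 3 of the records were called, against 38.2% of all listed records.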

How the data were processed

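RNA-seq libraries of SW480 cells were made by the study with a stranded mRNA kit using unique identifiers. Group and replicate came from sample titles, and columns named NC were taken as shCtrl, since the series has no other control. Raw counts for each symbol and RPKM values were deposited by the authors, which were recomputed from the counts to a relative difference of 5.14e-15. The submitters' processing notes name Trimmomatic 0.36, STAR 2.5.3a, featureCounts, Subread 1.5.1, edgeR 3.12.1 and GRCh38, without roles. How strand, multi-mapped reads and identifiers were handled is not given in the sources used here. These choices bear on paralogs, overlapping genes and abundant genes. Of the 42 members, 18 overlapped another symbol, and only some of these partners are described. Exons of the members were 96.0% identical to GENCODE v44. The authors deposited rMATS records with reads, levels and their own p-value and FDR columns, which were not used. Levels recomputed from the reads differed by at most 5e-04. Starts were converted to count from 1.

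In R 4.3.3, edgeR 4.0.16 filtered genes by filterByExpr, scaled libraries by TMM and fitted group alone in its quasi-likelihood model. P-values were adjusted by Benjamini-Hochberg over the 18243 genes tested, at 0.05. SE follows from the fold change and its F statistic. CPM carry TMM factors. Splicing reads were refitted in edgeR with library, read type and the interaction of read type with group. Alternatives were DESeq2 1.42.0, other scalings and filters, limma 3.58.1 on log2 RPKM with pseudocounts of 1 and 0.1, stricter thresholds, a GC and length correction (mgcv 1.9.3), a replicate block and each library left out. Within groups, counts of replicates differed by more than sampling noise (chi-square per degree of freedom 2.01 to 3.9). The fits were tested on simulated counts with 200 changed genes. There edgeR called 0.0389% of unchanged genes and 73.0% of genes with a log2 fold change of 0.5. In the data 59.1% of tested genes were called, so the simulation does not cover changes that widespread. With a GC trend put into the simulated counts, the uncorrected fit called 29.1% of unchanged genes and the corrected fit 0.0777%. The main results come from the uncorrected fit. The biological coefficient of variation was 0.035.

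Every member was named, and up to 3 genes per direction of each other list by size of change among those called, with SRPK1 added after its value was seen. A gene that this rule would name is not reported here. Members, lists and tests were chosen with earlier results of these data known.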

Additional observations from a re-analysis of the deposited data

How the results depend on the processing

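Over 16 alternatives, 26 of 37 members kept their direction and call. The 17th, a test against an absolute log2 fold change of 0.5, left 2 members called (SRSF2 and SRSF7, both higher, 0 lower), 2 SR proteins and 0 hnRNP and PTB genes, 0 hnRNP proteins under other symbols, 1 kinase or importin, 1 SR-related protein, 3 other regulators, and 2232 of all genes (1031 higher, 1201 lower). SRSF10 turned to -0.02 with upper-quartile scaling, to -0.11 with library totals and on both log2 RPKM scales, and ran from 0 (without shRBM39 replicate 3, where it turned) to 0.03 with 1 library left out. SRSF9 turned to -0.02 with library totals and on both log2 RPKM scales. Log2(RPKM + 1) gave 3530 genes higher and log2(RPKM + 0.1) gave 3535. SRSF4, SRSF5, HNRNPA0, HNRNPLL and HNRNPUL1 lost their call with library totals and, with PTBP2, on log2 RPKM. Members called lower numbered 2 with no filter on low counts, with an adjusted p under 0.01 and with DESeq2. The cause was not tested. Leaving out 1 library gave 31 to 32 members higher and 2 to 3 lower, the lower count of 2 without shCtrl replicate 2 or shRBM39 replicate 2, and 10138 to 10263 genes called. DESeq2 called 9081 genes. Replicate numbers do not pair the libraries (correlations of same-numbered deviations 0.01, -0.03 and 0). The replicate block gave 10810 genes and 32 members higher and 4 lower, and changed no member's call. Splicing records called numbered 272 with a difference of at least 0.2, and between 277 and 466 with 1 library left out, among them 277 without group 1 replicate 1, 363 without group 2 replicate 1 and 336 without group 2 replicate 3. The HNRNPD difference then ran from 0.0956 to 0.107 and was called each time, and the PTBP2 difference from 0.242 to 0.486 without a call. No value of PTBP2 was possible at a minimum of 20 reads. The median skipped exon had 17 event reads per library, which limits the precision of its level.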
